A study of Mus musculus with 4 samples.

Results

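The genes described here are 10 transcripts through which vascular smooth muscle cells (VSMCs) set their tone: *Cacna1c*, *Itpr1* and *Atp2a2* for calcium, *Kcnma1*, *Kcnmb1*, *Kcnj8* and *Abcc9* for potassium, and *Gucy1b3*, *Prkg1* and *Pde5a* for cyclic GMP. They were picked by gene symbol for what they encode, out of 48587 genes in a table of mRNA-seq read counts. No measured value was part of the rule, but the choice was made with earlier results of these data known. The study silenced *Mettl14*, a subunit of the enzyme complex that writes N6-methyladenosine (m6A) into mRNA, in primary VSMCs grown from the descending aorta of C57BL/6J mice aged 8 to 12 weeks and used at passage 5 to 7. The control group, shCTR, received a lentivirus with a hairpin against a plant microRNA sequence, and the shMettl14 group received a lentivirus with 1 hairpin against *Mettl14*. Virus was left on for 24 hours and cells were collected 48 hours later, so both groups carry a lentiviral vector and both are cultured, passaged cells. Each group has 2 libraries, lettered A and B, and the labels do not say what a letter stands for or which animals went into a library. Where the libraries of a group did not come from separate cultures, a p-value measures technical spread between them.

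Contraction of a VSMC follows the calcium in its cytoplasm. Calcium enters through L-type channels and is released from stores, binds calmodulin and turns on myosin light chain kinase, while a pump returns it to the stores. Potassium channels hold the membrane at a negative voltage and so keep the L-type channels shut, and cyclic GMP, made when nitric oxide binds soluble guanylate cyclase, activates a kinase that relaxes the cell until phosphodiesterases break the nucleotide down.

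The libraries held 114343653 to 124815868 counted reads, and 18916 genes, all 10 of these among them, passed the filter on low counts. *Mettl14* itself had 2050 and 2154 counts in shCTR A and B against 546 and 568 in shMettl14 A and B. That is 19.0 ± 1.34 CPM (counts scaled to the library total) against 4.48 ± 0.163 (mean ± SD, n = 2 each), a log2 fold change of -2.08 (SE 0.25). It missed the threshold over all genes tested in edgeR's quasi-likelihood test without a block (adjusted p = 1.0). It passed with the letter as a block in that test (adjusted p = 0.0039) and with DESeq2 (adjusted p = 3.0e-07). The letters set the libraries apart more than the hairpins did: across genes, log2 CPM correlated at 0.985 between the A libraries and 0.977 between the B libraries, against 0.953 between the shCTR libraries and 0.969 between the shMettl14 libraries. The summed level of 8 smooth muscle markers was 6799 and 5772 CPM in shCTR A and B against 4442 and 4811 CPM in shMettl14 A and B. Most of that sum is the contractile actin *Acta2* (3547, 2799, 2171 and 2073 CPM in that order) and *Tagln* (2333, 2449, 1616 and 2254 CPM), so both shMettl14 libraries lay below both shCTR libraries, opposite to the direction of most of the 10 genes. The part of the overall smooth muscle level in the results for the 10 genes was not tested. Markers of other cell types were present as well. The 7 endothelial markers summed to 1722 to 3913 CPM and none of them was at 0 in every library, while 6 leukocyte markers summed to 12.4 to 17.5 CPM. In such bulk libraries fewer cells of a type and less RNA per cell cannot be told apart.

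Across the 10 genes the level was higher with shMettl14 for 8 and lower for 2, *Kcnmb1* and *Gucy1b3*, and each kept that direction within both letters. Over all genes tested, 30.0% were higher within both letters and 27.7% were lower within both. None of the 10 had an adjusted p under 0.05 in edgeR's quasi-likelihood test, where 0% of all genes did, and none had an unadjusted p under 0.05, where 0.656% of all genes did in the higher and 1.01% in the lower direction. Both shMettl14 libraries lay above both shCTR libraries for 1 gene, *Cacna1c* (14.7% of all genes), and below them for 0 (13.3% of all genes), so the groups overlapped for the other 9. The median log2 fold change of the 10 was 0.43, against 0.0094 over all genes tested. For 9 of the 10 the fitted log2 fold change was smaller than its standard error, which in this fit takes in the difference between letters. With the letter as a block it stayed smaller for *Kcnma1*, *Kcnmb1* and *Atp2a2* and was larger for the rest, such as *Prkg1* (0.82, SE 0.24). In that fit 4 of the 10 had an unadjusted p under 0.05, as had 1941 of all 18916 genes (edgeR's quasi-likelihood test). None of the 10 had an adjusted p under 0.05 there. DESeq2 gave 1 of the 10 an unadjusted p under 0.05, *Cacna1c* (1.52% of all genes it tested), and none an adjusted p under the threshold.

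**Figure D1:**
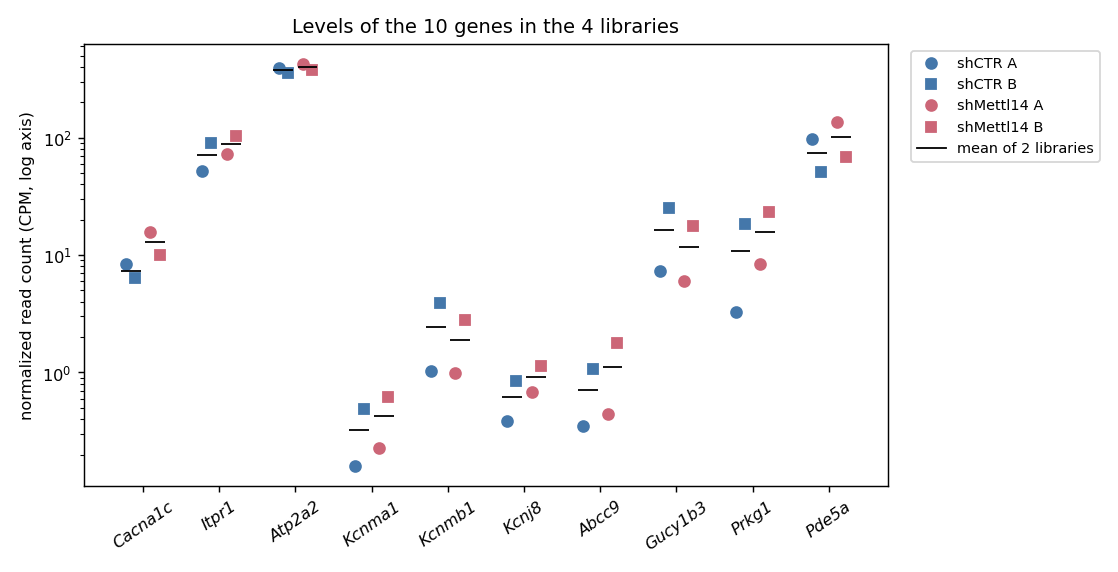
Level of each of the 10 genes in the 4 libraries, in CPM on a log axis, with shCTR and shMettl14 apart, circles for letter A, squares for letter B and a line at each group mean. *Cacna1c* is the gene whose shMettl14 points both lie above its shCTR points, and *Prkg1*, *Gucy1b3* and *Kcnmb1* are spread mainly by letter.

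*Cacna1c* encodes the pore of the L-type calcium channel, the main door for calcium on depolarization. Its level was 8.37 CPM in shCTR A, 6.39 in shCTR B, 15.8 in shMettl14 A and 10.02 in shMettl14 B. Both shMettl14 libraries were higher than both shCTR libraries, and within each group the A library was the higher one. The means were 7.38 ± 1.40 against 12.9 ± 4.06 CPM (SD, n = 2 each), 1.75-fold apart. The log2 fold change was 0.80 (SE 0.34), with an unadjusted p of 0.066 and an adjusted p of 1.0 in edgeR's quasi-likelihood test, and 2.59% of the genes tested had a smaller p. The shMettl14 to shCTR ratio of CPM was 1.88 within letter A (95% interval 1.74 to 2.04) and 1.57 within letter B (1.43 to 1.72). These exact binomial intervals, here and for the genes that follow, cover counting error only and not the spread between cultures. With each library left out in turn the log2 fold change stayed between 0.44 and 1.10.

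The gene (ENSMUSG00000051331) lies on the minus strand at chr6:118587240-119196418 of GRCm38. Gene-level counts add up reads from all its transcription starts, and RefSeq (GRCm38.p6) lists 3, shown here because this is the gene whose groups did not overlap. Each window runs from 250 bases before the start to 50 after it, 5′ to 3′ on the gene's strand. Capitals mark GGGCGG, the core of an Sp1-type GC box, and CCAAT, searched on both strands so that CCGCCC and ATTGG count as well.
*Cacna1c* chr6:119196360-119196659: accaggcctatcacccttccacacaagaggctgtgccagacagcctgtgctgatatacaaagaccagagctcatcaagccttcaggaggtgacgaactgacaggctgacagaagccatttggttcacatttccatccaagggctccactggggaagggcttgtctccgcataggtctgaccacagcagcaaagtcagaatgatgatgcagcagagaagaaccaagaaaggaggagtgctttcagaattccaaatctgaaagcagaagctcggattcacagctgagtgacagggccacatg
*Cacna1c* chr6:119108446-119108745: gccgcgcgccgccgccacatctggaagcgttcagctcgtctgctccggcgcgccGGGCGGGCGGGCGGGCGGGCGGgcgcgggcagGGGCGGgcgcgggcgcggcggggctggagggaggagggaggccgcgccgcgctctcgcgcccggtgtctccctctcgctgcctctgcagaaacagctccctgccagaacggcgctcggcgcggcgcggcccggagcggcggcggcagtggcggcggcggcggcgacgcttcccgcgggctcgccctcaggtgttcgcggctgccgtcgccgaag
*Cacna1c* chr6:118757925-118758224: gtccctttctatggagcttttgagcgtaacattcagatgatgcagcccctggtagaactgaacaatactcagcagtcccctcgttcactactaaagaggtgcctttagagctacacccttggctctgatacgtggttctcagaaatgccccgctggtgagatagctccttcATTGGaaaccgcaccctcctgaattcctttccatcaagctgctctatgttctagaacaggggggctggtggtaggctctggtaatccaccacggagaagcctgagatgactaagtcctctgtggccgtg
The first window is at the 5′ end of the gene and holds neither word. The second, inside the gene, is 81.3% G and C, where the median promoter is 52.7% G and C. It holds 6 GGGCGG words counted with overlaps, most of them sharing letters in a single run. The third, further inside, holds 1 CCAAT. The counts cannot say from which of the 3 the additional reads came.

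*Itpr1* encodes the type 1 inositol trisphosphate receptor, which lets calcium out of the stores after receptor stimulation. It was measured at 52.3 CPM in shCTR A, 89.4 in shCTR B, 72.5 in shMettl14 A and 103 in shMettl14 B. The B libraries were the higher ones with both hairpins, and shMettl14 A lay between the shCTR libraries, so the groups overlapped. Means of 70.9 ± 26.2 and 87.9 ± 21.8 CPM (SD, n = 2 each) gave a log2 fold change of 0.31 (SE 0.34). Within letters the ratio was 1.39 (1.34 to 1.43) in A and 1.16 (1.13 to 1.19) in B. Without shCTR A the log2 fold change was -0.02. Of the exon bases of *Itpr1* (ENSMUSG00000030102, plus strand, chr6:108213096-108551109), 1.58% overlap a gene on the other strand.

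*Atp2a2* encodes SERCA2, the pump that refills the stores and so ends a calcium signal. Its level was 395 CPM in shCTR A, 357 in shCTR B, 424 in shMettl14 A and 376 in shMettl14 B. This was the steadiest of the 10: the 4 libraries lay close together, with A above B in each group and the groups overlapping. The log2 fold change was 0.09 (SE 0.19) between means of 376 ± 27.0 and 399.6 ± 33.9 CPM (SD, n = 2 each). The within-letter ratios were 1.07 (1.06 to 1.09) and 1.05 (1.04 to 1.07). The gene (ENSMUSG00000029467) is on the minus strand at chr5:122453513-122502225.

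The large-conductance calcium-activated (BK) channel answers a rise in calcium by letting potassium out, which closes the L-type channels again. Its pore gene, *Kcnma1* (ENSMUSG00000063142, minus strand, chr14:23289431-24014491), had 18 counts in shCTR A, 53 in shCTR B, 27 in shMettl14 A and 81 in shMettl14 B. That is 0.158, 0.491, 0.227 and 0.623 CPM, where 3 counts amount to 0.0231 to 0.0278 CPM, so the gene was detected in every library but at a low level. Both B libraries were above both A libraries, and the hairpin groups overlapped. The log2 fold change was 0.39 (SE 0.84), and the ratio's counting interval held 1 in both letters (0.762 to 2.77 in A, 0.887 to 1.83 in B). The log2 fold change turned to -0.20 without shCTR A and -0.50 without shMettl14 B. By counting error alone, the ratio could therefore not be told apart from 1 in either letter at these counts. Part of the exons, 5.99% of their bases, overlaps 4930519K11Rik on the other strand.

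*Kcnmb1* encodes the smooth muscle beta subunit that makes the BK channel more sensitive to calcium. Its counts were 118 in shCTR A, 419 in shCTR B, 118 in shMettl14 A and 367 in shMettl14 B, or 1.04, 3.88, 0.994 and 2.82 CPM. The A libraries were alike with both hairpins and the B libraries were both higher, so the values were separated mainly by letter. Its log2 fold change was -0.37 (SE 0.82), and it turned to 0.87 without shCTR B and 0.20 without shMettl14 A. In letter A the ratio of 0.957 had an interval that held 1 (0.735 to 1.25), and in letter B it was 0.727 (0.631 to 0.839). The gene (ENSMUSG00000020155) lies at chr11:33963013-33973641 on the plus strand.

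Auxiliary and pore subunits were also read against each other, since a ratio within a library does not depend on how the library was scaled. *Kcnmb1* had 6.56 and 7.91 counts for each *Kcnma1* count in shCTR A and B, against 4.37 and 4.53 in shMettl14 A and B. The ratio was lower in both shMettl14 libraries than in both shCTR libraries, by -0.57 on the log2 scale within letter A and -0.80 within letter B. It rests on 18 to 81 *Kcnma1* counts and was given no test.

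*Kcnj8* and *Abcc9* encode the pore (Kir6.1) and the sulfonylurea receptor (SUR2) of the vascular ATP-sensitive potassium channel, which opens when the cell runs short of ATP and is the target of vasodilators such as minoxidil. They are neighbours on the minus strand of chromosome 6 (*Kcnj8*, ENSMUSG00000030247, chr6:142564837-142571614; *Abcc9*, ENSMUSG00000030249, chr6:142587862-142702315), with 16247 bases and 0 other genes between them. *Kcnj8* had 44 counts in shCTR A, 91 in shCTR B, 81 in shMettl14 A and 148 in shMettl14 B, which is 0.387, 0.843, 0.682 and 1.14 CPM. It was higher in B than in A with both hairpins and higher with shMettl14 within both letters, and shMettl14 A lay under shCTR B. The log2 fold change was 0.57 (SE 0.59). Counting intervals of the ratio were 1.21 to 2.60 in A and 1.03 to 1.77 in B. With each library left out the log2 fold change stayed above 0, from 0.12 to 1.23.

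*Abcc9* had 40, 115, 53 and 232 counts in shCTR A, shCTR B, shMettl14 A and shMettl14 B. These are 0.352, 1.06, 0.446 and 1.78 CPM. As for its neighbour, the highest value was in shMettl14 B and the lowest in shCTR A, and the letters were further apart than the hairpins. Its log2 fold change of 0.66 (SE 0.88) turned to -0.66 without shMettl14 B. In letter A the interval of the ratio held 1 (0.825 to 1.96), and in letter B it was 1.33 to 2.11. For each *Kcnj8* count there were 0.909 and 1.26 *Abcc9* counts in shCTR A and B and 0.654 and 1.57 in shMettl14 A and B, so the ratio of the subunits was lower with shMettl14 in A and higher in B. Both genes are also used as pericyte markers. The other 5 pericyte markers summed to 564 and 218 CPM in shCTR A and B and to 507 and 208 CPM in shMettl14 A and B, higher in A, where *Kcnj8* and *Abcc9* were lower. That sum is mostly *Rgs5* and *Cspg4*, and *Notch3* was higher in B instead (17.4, 37.6, 29.2 and 46.7 CPM in shCTR A, shCTR B, shMettl14 A and shMettl14 B). *Higd1b* was at 0 in all but shMettl14 A.

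**Figure D2:**
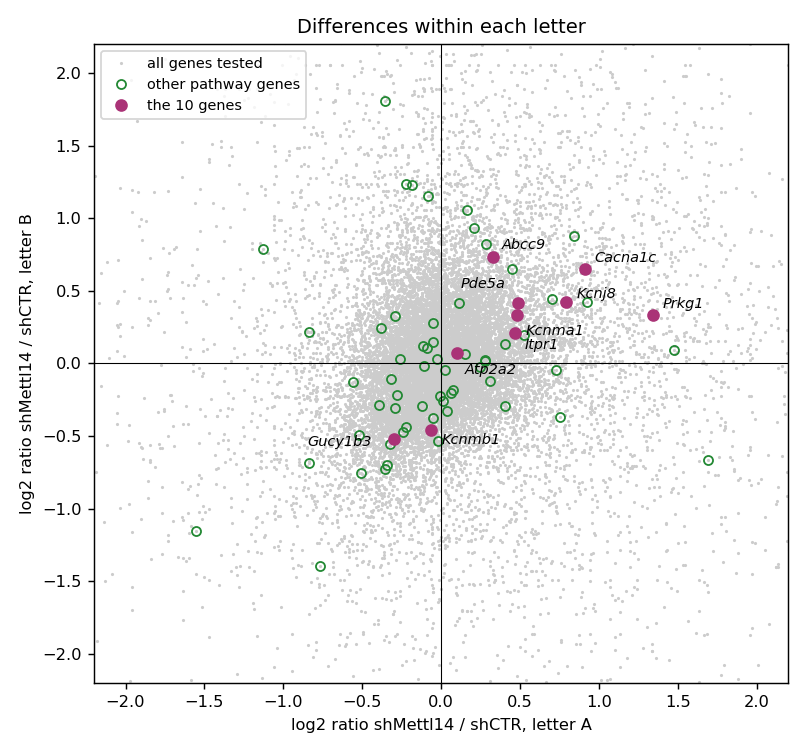
Log2 ratio of shMettl14 to shCTR within letter A (horizontal) and within letter B (vertical) for the 10 genes, the other genes of the calcium, potassium and cyclic GMP list, and all genes tested in grey. The 8 genes in the upper right were higher within both letters and the 2 in the lower left, *Kcnmb1* and *Gucy1b3*, were lower within both. Outside the axes lie 872 of all tested genes and 3 of the list.

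*Gucy1b3*, named *Gucy1b1* in current annotation, encodes the beta subunit of soluble guanylate cyclase, which carries the haem that binds nitric oxide. Its level was 7.38 CPM in shCTR A, 25.1 in shCTR B, 5.99 in shMettl14 A and 17.5 in shMettl14 B. Both B libraries stood above both A libraries, and the shMettl14 library was the lower one in each letter. The means of 16.2 ± 12.5 and 11.8 ± 8.16 CPM (SD, n = 2 each) gave a log2 fold change of -0.47 (SE 0.76), the lowest of the 10. Within letters the ratio was 0.812 (0.733 to 0.898) in A and 0.698 (0.660 to 0.738) in B. The direction turned when a library was left out, to 0.67 without shCTR B and 0.11 without shMettl14 A.

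Its partner *Gucy1a3*, the alpha subunit that forms the enzyme with it, is the next gene on the same strand, 17737 bases away with 0 genes between. *Gucy1a3* had 198, 449, 121 and 204 counts in shCTR A, shCTR B, shMettl14 A and shMettl14 B. The log2 ratio within letters was -0.76 in A and -1.40 in B, and the log2 fold change was -1.19 (SE 0.57, unadjusted p = 0.091 and adjusted p = 1.0 in edgeR's quasi-likelihood test). Both subunits were therefore lower within both letters. There were 0.236 and 0.166 *Gucy1a3* counts for each *Gucy1b3* count in shCTR A and B against 0.170 and 0.0895 in shMettl14 A and B, a log2 difference of -0.47 and -0.89. The promoter window of *Gucy1b3* (ENSMUSG00000028005, gene at chr3:82032006-82074689, minus strand) is shown as that of the gene with the lowest log2 fold change, with the same capitals as above.
*Gucy1b3* chr3:82074662-82074961: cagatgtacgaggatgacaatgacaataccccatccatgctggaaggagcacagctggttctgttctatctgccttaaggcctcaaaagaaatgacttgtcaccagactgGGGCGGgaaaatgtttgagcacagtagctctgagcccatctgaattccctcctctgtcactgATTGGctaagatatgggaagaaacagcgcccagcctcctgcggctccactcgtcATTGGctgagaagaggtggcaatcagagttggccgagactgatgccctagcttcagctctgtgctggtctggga
It holds 1 GGGCGG and 2 CCAAT words.

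*Prkg1* encodes the cyclic GMP-dependent protein kinase type 1, the enzyme that carries the relaxing signal. It was measured at 3.30 CPM in shCTR A, 18.4 in shCTR B, 8.40 in shMettl14 A and 23.1 in shMettl14 B. The B libraries were the higher ones with both hairpins, and the shMettl14 library was the higher one in each letter. In letter A the ratio was 2.55 (2.26 to 2.87) and in letter B 1.26 (1.19 to 1.33), intervals that do not meet, so the libraries of the 2 letters gave different sizes. Across letters the means were 10.8 ± 10.7 and 15.8 ± 10.4 CPM (SD, n = 2 each). The log2 fold change was 0.54 (SE 0.90), and it turned to -0.22 without shCTR A and -0.36 without shMettl14 B.

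RefSeq lists 2 starts for *Prkg1* (ENSMUSG00000052920, minus strand, chr19:30564489-31765033), and *Prkg1* is known to give alpha and beta isoforms that differ at their amino ends. They are shown because the counts sum both, and because this gene had the highest ratio within a letter. Capitals again mark GGGCGG and CCAAT on either strand.
*Prkg1* chr19:31764984-31765283: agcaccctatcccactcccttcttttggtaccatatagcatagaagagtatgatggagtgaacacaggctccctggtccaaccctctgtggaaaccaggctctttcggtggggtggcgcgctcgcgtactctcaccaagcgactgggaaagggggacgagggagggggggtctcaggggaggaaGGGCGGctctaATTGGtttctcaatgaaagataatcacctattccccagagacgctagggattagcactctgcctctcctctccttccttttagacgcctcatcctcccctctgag
*Prkg1* chr19:31664321-31664620: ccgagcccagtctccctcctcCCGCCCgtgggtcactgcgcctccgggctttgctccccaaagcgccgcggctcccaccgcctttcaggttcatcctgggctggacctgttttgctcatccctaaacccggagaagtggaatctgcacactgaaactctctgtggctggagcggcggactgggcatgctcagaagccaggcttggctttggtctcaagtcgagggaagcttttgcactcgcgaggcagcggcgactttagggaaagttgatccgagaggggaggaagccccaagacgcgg
The first window holds 1 GGGCGG and 1 CCAAT, and the second holds 1 GGGCGG.

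Among the 8 of the 10 genes with a RefSeq promoter entry, which leaves *Itpr1* and *Atp2a2* without one, 11 windows were searched. GGGCGG was in 7 of the 11 (35.7% of all promoter windows of the same length) and CCAAT in 3 of the 11 (37.4% of all). The CArG box, the serum response factor word of many smooth muscle genes, was in 0 of the 11 (1.63% of all), and TATAAA in 0 of the 11 (13.6% of all). A match describes the letters of a window, and the absence of one says nothing on binding outside it.

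*Pde5a* encodes the cyclic GMP-specific phosphodiesterase 5, the target of sildenafil, which ends the signal. Its level was 97.1 CPM in shCTR A, 50.8 in shCTR B, 136 in shMettl14 A and 67.9 in shMettl14 B. Here the A libraries were the higher ones with both hairpins, opposite to *Gucy1b3* and *Prkg1*, and shMettl14 B lay between the shCTR libraries. The within-letter ratios were close to each other, 1.40 (1.37 to 1.44) in A and 1.34 (1.29 to 1.38) in B. Means of 74.0 ± 32.8 and 102 ± 48.4 CPM (SD, n = 2 each) gave a log2 fold change of 0.46 (SE 0.47), which was -0.12 without shMettl14 A. For each count of the cyclase subunit *Gucy1b3* there were 13.2 and 2.02 *Pde5a* counts in shCTR A and B, against 22.8 and 3.87 in shMettl14 A and B. The ratio of *Pde5a* to *Gucy1b3* was thus higher with shMettl14 within both letters, by 0.79 and 0.94 on the log2 scale. It was further apart between the letters than between the hairpins. Its direction follows from the opposite directions of these 2 genes, and other transcripts of cyclic GMP synthesis and breakdown are not part of it. The gene (ENSMUSG00000053965) is on the plus strand at chr3:122728947-122859374.

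The counting interval of the ratio between hairpins left out 1 on the same side within both letters for 7 of the 10 genes (30.5% of all genes tested, many with fewer counts), and held 1 in at least 1 letter for *Kcnma1*, *Kcnmb1* and *Abcc9*. On the log2 scale the mean difference between letters was larger than that between hairpins for all of the 10 but *Cacna1c*. Libraries B were higher than A with both hairpins for 7 of the 10 (35.5% of all genes tested) and lower for 3, *Cacna1c*, *Atp2a2* and *Pde5a* (36.7% of all genes tested). At least 2-fold apart in the same direction with both hairpins were 5 of the 10, *Kcnma1*, *Kcnmb1*, *Abcc9*, *Gucy1b3* and *Prkg1*, against 8.56% of all genes tested. For *Prkg1* the log2 difference of B from A was 2.47 with shCTR and 1.46 with shMettl14, for *Kcnmb1* 1.88 and 1.49, and for *Gucy1b3* 1.76 and 1.55. *Myocd*, the coactivator of smooth muscle genes, moved with the letters too, at 0.546 and 7.10 CPM in shCTR A and B and 0.918 and 6.60 CPM in shMettl14 A and B. Myosin heavy chain *Myh11* went the other way (338, 101, 233 and 75.0 CPM in shCTR A, shCTR B, shMettl14 A and shMettl14 B). The summed endothelial markers were higher in B as well (1832, 3913, 1722 and 2408 CPM in that order). Among them *Emcn* had the largest difference between letters (649, 2100, 484 and 1077 CPM), and *Tie1* was lower in B (171, 136, 158 and 134 CPM). The part of cell make-up in the letter differences was not tested.

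**Figure D3:**
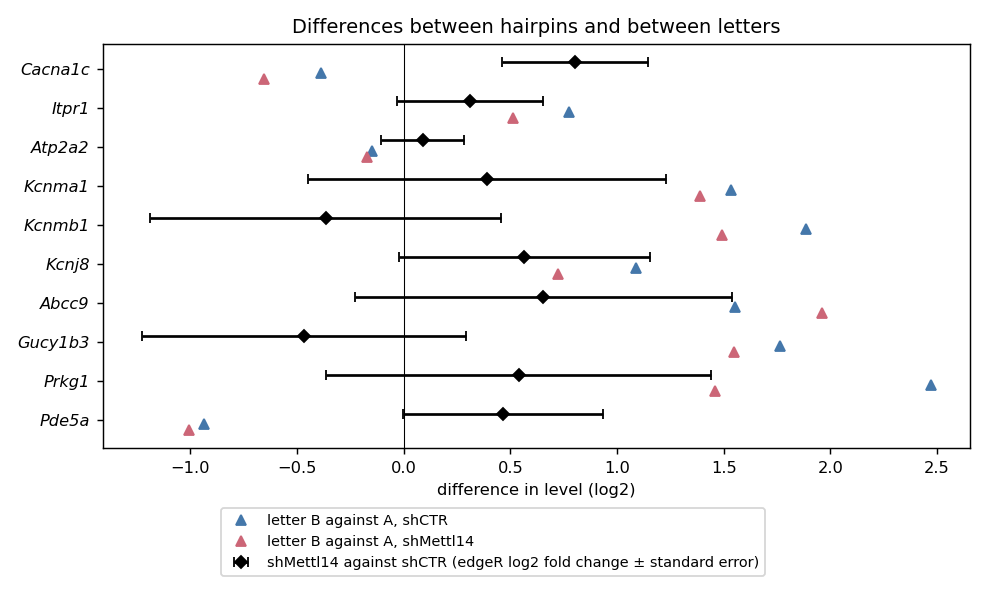
For each of the 10 genes, edgeR's log2 fold change of shMettl14 against shCTR with its standard error, beside the log2 difference of B from A within each hairpin group. *Prkg1*, *Kcnmb1* and *Gucy1b3* differ by 1.46 to 2.47 between letters. *Cacna1c* is the gene whose log2 fold change (0.80, SE 0.34) is larger in size than its letter differences (-0.39 and -0.65).

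Levels can be set against each other only per length. The length used here is all annotated exon bases of a gene, merged over its isoforms (21.2 kb for *Cacna1c*, 4.19 kb for *Kcnmb1*). Where it exceeds the length of the transcripts present, it lowers the level shown. In CPM per kilobase of exon, *Atp2a2* was highest with 61.8 ± 4.43 in shCTR (SD, n = 2) and 65.7 in shMettl14, and it was first in all 4 libraries. *Pde5a* (7.52 ± 3.33), *Gucy1b3* (4.14 ± 3.19) and *Itpr1* (3.87 ± 1.43) followed in shCTR, with SDs that overlapped. *Pde5a* was above *Itpr1* in all 4 libraries, by the least in shCTR B (5.17 against 4.88). *Gucy1b3* was above *Pde5a* in shCTR B (6.39) and below it in the other libraries. *Prkg1* at 0.998 ± 0.982, *Kcnmb1* at 0.587 ± 0.479, *Cacna1c* at 0.348 ± 0.0662 and *Kcnj8* at 0.241 ± 0.126 came next, each overlapping with the one before it in that series. *Abcc9* (0.0846 ± 0.0602) and *Kcnma1* (0.0191 ± 0.0138) were the ninth and the tenth in every library. On this measure the pump transcript was thus far more abundant per length than any channel transcript, and the BK pore transcript was the least abundant. With shMettl14 the means were 10.4 for *Pde5a*, 2.99 for *Gucy1b3*, 4.80 for *Itpr1*, 1.45 for *Prkg1*, 0.608 for *Cacna1c* and 0.455 for *Kcnmb1*.

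**Figure D4:**
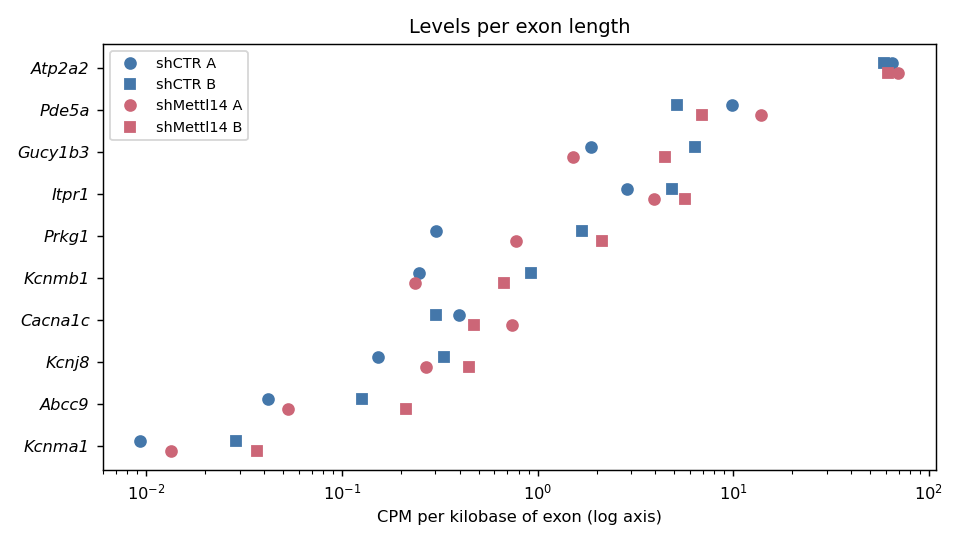
Level of the 10 genes in CPM per kilobase of exon on a log axis, ordered by the shCTR mean, with the 4 libraries as points. *Atp2a2* is at the top in every library (61.8 in the shCTR mean) and *Kcnma1* at the bottom (0.0191).

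The other genes of the same machinery, a list of 70 of which 62 passed the filter, did not share one direction: 28 were higher and 34 lower with shMettl14, with a median log2 fold change of -0.04. Within both letters 15 of the 62 were higher (24.2%, against 30.0% of all genes tested) and 22 lower (35.5%, against 27.7% of all genes tested). None had an adjusted p under 0.05 in edgeR's quasi-likelihood test, where 0% of all genes did. In that test 3, *Itpr3*, *Calm2* and *Pln*, were lower with an unadjusted p under 0.05 (1.01% of all genes tested), and 0 were higher (0.656%). Among the relatives of *Itpr1*, *Itpr3* was lower (20315, 20430, 14911 and 14559 counts in shCTR A, shCTR B, shMettl14 A and shMettl14 B, log2 fold change -0.63, SE 0.19), while *Itpr2* differed by 0.13. The ryanodine receptor *Ryr2*, another release channel, had low counts in every library (29, 17, 9 and 8).

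*Calm2*, a calmodulin gene and the calcium sensor that turns on myosin light chain kinase, had 47211, 46254, 27674 and 34675 counts in that library order, a log2 fold change of -0.76 (SE 0.19). It belongs to a family of near-identical coding sequences, so its count is uncertain. The myosin light chain kinase gene *Mylk*, at 3203, 11387, 2639 and 8447 counts, was higher in B by letter like *Kcnmb1* and *Gucy1b3*, with a log2 fold change of -0.62 (SE 0.78) that was 0.63 without shCTR B. Of 7 voltage-gated and two-pore potassium channels tested, 6 were higher, against 9686 of all 18916 genes tested. Within both letters 3 of them were higher (30.0% of all genes tested). *Kcnk2*, a mechanosensitive two-pore channel, had 600, 630, 1020 and 1033 counts and groups that did not overlap (log2 fold change 0.57, SE 0.28, with 12.2% of its exon bases shared with a gene on the other strand), and *Kcnq5* had 47, 134, 95 and 217 (0.58, SE 0.71).

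Among further genes of the list, the inward rectifier *Kcnj2* had 265, 152, 338 and 326 counts, with both shMettl14 libraries above both shCTR libraries (log2 fold change 0.52, SE 0.42). *Gucy1a2*, another alpha subunit of the cyclase, differed by 0.57 (SE 0.58), opposite to *Gucy1a3*, at 366, 1095, 1067 and 1406 counts. *Mrvi1*, the kinase target that binds *Itpr1* protein, had 4076, 2939, 4617 and 4714 counts (log2 fold change 0.25). The pancreatic-type subunits *Kcnj11* (5, 0, 1 and 0 counts) and *Abcc8* (3, 0, 0 and 1 counts) were at or near 0, unlike *Kcnj8* and *Abcc9*. *Pln*, the inhibitor of the *Atp2a2* pump, had 92 counts in shCTR A but 14, 4 and 8 in shCTR B, shMettl14 A and shMettl14 B. Antisense genes cover 64.7% of the *Pln* exons, so part of these reads may be theirs. shCTR A also held 470 counts of the heart myosin *Myh6*, which was at 0 in the other libraries, and 625 of the skeletal myosin *Myh4*. Their part in the *Pln* value was not tested.

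**Figure D5:**
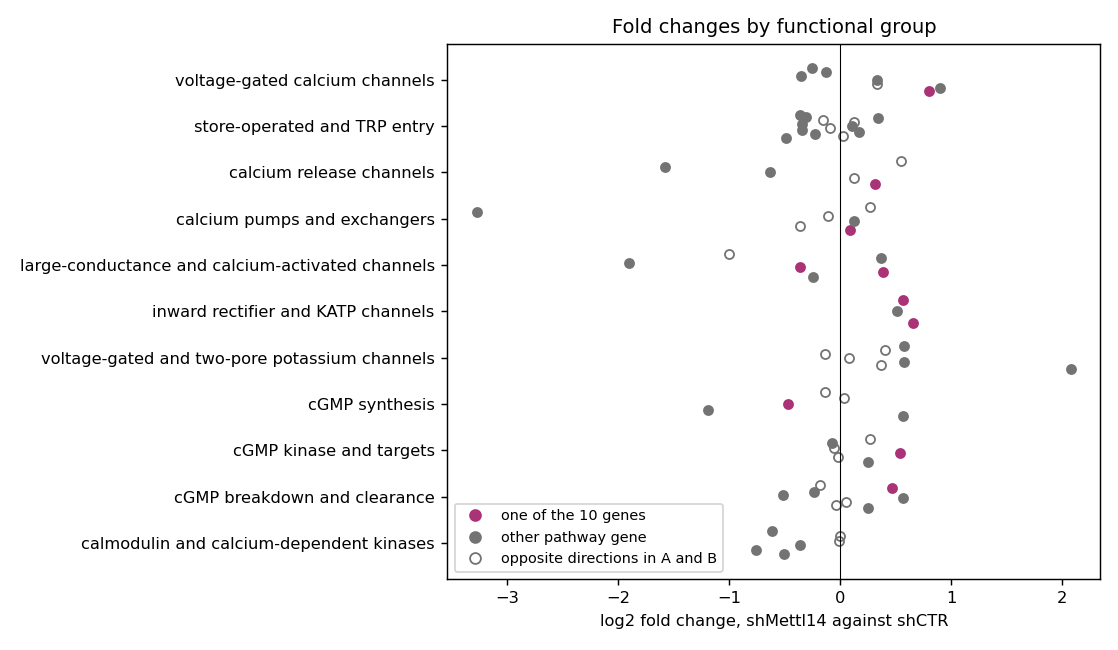
Log2 fold change of shMettl14 against shCTR for the 10 genes and the other tested genes of the calcium, potassium and cyclic GMP list, by functional group, with 0 marked. The 10 genes lie between -0.47 and 0.80, 8 above 0 and 2 below, while of the other 62 genes 28 lie above 0 and 34 below.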

How the data were processed

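The authors extracted total RNA with TRIzol, selected poly-A RNA, prepared TruSeq Stranded libraries, sequenced them as read pairs on a Illumina HiSeq, and used STAR for alignment and featureCounts for counting. Raw counts per gene symbol were deposited. Tool versions, strand settings and the handling of multiply mapped reads were not given in the sources used here. The aligner and counter names come from the submitters' processing notes and the study's methods. Without a stated strand setting, reads of overlapping antisense genes cannot be told apart, and reads of near-identical genes may be split or dropped.

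Counts were fitted over all genes with edgeR 4.0.16 (R 4.3.3, limma 3.58.1): filterByExpr, TMM factors, robust quasi-likelihood fit, no block, Benjamini-Hochberg adjustment over all 18916 genes tested and a threshold of 0.05. Directions and log2 ratios within a letter, and log2 differences between letters, used log2 CPM with a prior count of 2. Ratios printed with counting intervals used scaled counts with no prior count. Log2 differences in the ratio of 2 genes were taken after adding 0.5 to each count. With 2 libraries against 2, an exact permutation test of a lone gene cannot go below p = 0.333, so none was run. Alternatives were DESeq2 1.42.0, RLE and upper-quartile factors, a filter of 1 count in total or of 10 in every library, the letter as a block, a prior count of 0.5 and leaving out each library. Libraries held 114343653 to 124815868 counts, and 3 counts, taken as the floor, equal 0.0231 to 0.0278 CPM. Symbols were matched to GENCODE M21 (GRCm38) for places and exon lengths, 46883 of 48587 of them, all 10 genes among them. Promoter windows are RefSeq's (GRCm38.p6). The 10 genes, the 80-gene list and the marker lists were chosen with earlier results of these data known. Named besides the 10 were *Mettl14*, listed genes passing the test with or without the block, the 4 highest and 4 lowest log2 fold changes among listed genes with a mean of at least 1 CPM and the same direction in both letters, and partners of the 10. Summed CPM of 3 further marker lists, in shCTR A, shCTR B, shMettl14 A and shMettl14 B, was 405, 208, 405 and 173 for fibroblast, 39.1, 28.4, 16.5 and 26.4 for striated muscle, and 99.5, 103, 62.5 and 71.1 for neuron and glia. The result for 1 listed gene is not reported here.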

Additional observations from a re-analysis of the deposited data

How the results depend on the processing

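None of the 10 genes changed direction under the 6 alternatives that kept all 4 libraries, and none had an adjusted p under 0.05 in any alternative. The letters were not stated to mark a shared culture. Deviations of same-letter libraries correlated at 0.578, and edgeR with the letter as a replicate block called 9 genes in all at an adjusted p under 0.05, against 0 without it, and 1941 at an unadjusted p under 0.05. In the replicate block fit, *Mettl14* had a log2 fold change of -2.08 with an adjusted p of 0.0039. In that fit 4 of the 10 genes had an unadjusted p under 0.05, beside 1941 of all 18916 genes tested (*Cacna1c* 0.0019, *Prkg1* 0.0058, *Pde5a* 0.014 and *Gucy1b3* 0.041, adjusted 0.23, 0.31, 0.37 and 0.47). Without the block it was 0 of the 10, beside 315 of all 18916 genes. DESeq2 called 5 genes in all, gave *Mettl14* -2.09 with an adjusted p of 3.0e-07, and had 1 of the 10 genes at an unadjusted p under 0.05, as had edgeR without the filter, 1 (*Cacna1c* in both).

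Leaving out a library compares unequal numbers of letters, and the lone library is assumed to vary like the other group. It gave 0 to 1 adjusted calls over all genes (1 without shCTR B), 78 to 1399 at an unadjusted p under 0.05, -2.15 to -2.01 for *Mettl14*, 0 to 2 of the 10 genes at an unadjusted p under 0.05 (2 without shCTR B, *Itpr1* and *Prkg1*), and 5 to 10 of the 10 higher, against 8 with all libraries (5 without shCTR A or shMettl14 B, 9 without shMettl14 A, 10 without shCTR B). Log2 fold changes that turned are given with the lowest and highest value over the left-out libraries. Without shCTR A, *Kcnma1* was at -0.20, *Itpr1* -0.020 (to 0.75 without shCTR B), *Prkg1* -0.22, *Kcnq5* -0.0025 and *Gucy1a2* -0.030 (to 1.62). Without shCTR B, *Kcnmb1* was at 0.87 (from -1.30), *Gucy1b3* 0.67 (from -1.43) and *Mylk* 0.63 (from -1.58), the lows being without shMettl14 B. Without shMettl14 A, *Kcnmb1* was at 0.20, *Pde5a* -0.12 (to 1.01 without shCTR A) and *Gucy1b3* 0.11. Without shMettl14 B, *Kcnma1* was at -0.50 (to 1.42), *Prkg1* -0.36 (to 2.25), *Abcc9* -0.66 (to 1.66) and *Kcnq5* -0.040 (to 1.57), the highs being without shCTR B. *Cacna1c*, *Atp2a2* and *Kcnj8* kept their direction in each. The cause was not tested.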
